A study of Mus musculus with 4 samples.

Results

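The genes described here encode the proteins that coat single-stranded DNA and drive strand exchange in meiotic recombination. They are *Dmc1*, *Psmc3ip*, *Mnd1*, *Rad51ap2*, *Meiob*, *Spata22*, *Brca2* and *Hsf2bp*, 8 of the 11598 genes in the table, taken by gene symbol. All 8 were present and averaged 1 FPKM or more across the libraries, the level asked of a gene to be tested. The values are ribosome-protected fragments (RPFs), the short mRNA fragments left under ribosomes after RNase I digestion, and FPKM are RPF reads scaled to 1 kilobase of gene and to a library total of 1000000.

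The cells were leptotene/zygotene spermatocytes sorted by FACS with a Hoechst DNA dye from testes of 12 dpp mice. The 2 control libraries carry the genotype label wild type and the study describes them as littermate controls. The 2 *Eef1g*-cKO libraries came from mice in which *Stra8*-GFPCre deletes exons 2 to 7 of floxed *Eef1g*, which encodes a subunit of translation elongation factor 1, in male germ cells, so that somatic cells of the testis keep the gene. *Eef1g* itself had 107 and 58 reads in control against 0 and 4 in *Eef1g*-cKO. Of its coding 28-base stretches, 95.9% also occur in pseudogenes elsewhere in the genome, so reads left in *Eef1g*-cKO need not come from *Eef1g*. Depth differed between the groups, with 2479504 and 1384282 reads on genes in control against 223906 and 407979 in *Eef1g*-cKO. A single read on a gene of 1 kb was worth 0.403 and 0.722 FPKM in control against 4.47 and 2.45 FPKM in *Eef1g*-cKO, so counting error was largest in *Eef1g*-cKO. Replicates within a group differed by more than sampling noise (chi-square per degree of freedom 12.4 over 10579 genes in control and 1.88 over 5430 in *Eef1g*-cKO). At equal spread this measure grows with depth, so it does not rank the groups by how well their replicates match.

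In leptotene, programmed DNA breaks are resected to single-stranded tails, which are coated first by the RPA complex and by MEIOB-SPATA22, a meiosis-specific complex related to RPA. BRCA2, held at meiotic breaks by HSF2BP (also called MEILB2) and its partner BRME1, then helps to load recombinase onto the tails. DMC1 is the recombinase found only in meiosis, and PSMC3IP (HOP2) with MND1 forms a heterodimer that stimulates it to invade the homologous chromosome. RAD51AP2 is a recombination protein of germ cells.

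Footprints can be assigned to the wrong gene where coding sequence is shared, so each coding sequence was searched for 28-base stretches, a length used here to stand for a footprint, that occur in another annotated gene. None was found in *Dmc1* (chr15:79561497-79605159 on GRCm38, RefSeq annotation of GRCm38.p6), *Psmc3ip*, *Meiob*, *Hsf2bp* or *Rad51ap2*.

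The remaining genes did share sequence with other loci. In *Mnd1* (chr3:84087933-84155798), 398 of 591 coding 28-base stretches (67.3%) also occur in *Mnd1-ps*, a transcribed processed pseudogene on chromosome 14. In *Spata22* (chr11:73326560-73346592), 899 of 1050 also belong to *Gm49340*, a gene annotated over the same locus on the same strand. In *Brca2* (chr5:150522297-150570147), 17 of 9963 fall in *Gm42529*, which runs antisense inside it. How the study's counting treated reads shared in this way is not given in the sources used here, so *Mnd1* and, to the extent that *Gm49340* is counted apart, *Spata22* are uncertain in level. *Psmc3ip* lies at chr11:101092141-101095435, *Meiob* at chr17:24804301-24839788, *Hsf2bp* at chr17:31944769-32034895 and *Rad51ap2* at chr12:11456023-11463153.

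Because several of these genes moved together, their promoters were searched for 3 short motifs on both strands: the E2F site GGCGGGAA, the STRA8-MEIOSIN site CNCCTCAG (N is any base) and the cAMP response element (CRE) TGACGTCA. Each window runs from 250 bases before to 50 after the RefSeq start site, and 7 of the 8 genes have one. The E2F letters occur in *Spata22* and in *Rad51ap2*, starting 5 and 13 bases before the start site, and the CRE letters in *Brca2*, starting 20 bases before it. These windows are printed 5′ to 3′ on the gene's strand with the motif in capitals, since they are the windows with a match and set *Spata22* and *Rad51ap2*, higher in *Eef1g*-cKO, beside *Brca2*, which was not. They lie at chr11:73329491-73329790 (plus strand) for *Spata22*, chr12:11455805-11456104 (plus strand) for *Rad51ap2* and chr5:150522371-150522670 (plus strand) for *Brca2*. The windows of *Spata22* and *Brca2* fall wholly inside the gene spans given above, so the start sites used for them are not the first bases of those spans.
Spata22: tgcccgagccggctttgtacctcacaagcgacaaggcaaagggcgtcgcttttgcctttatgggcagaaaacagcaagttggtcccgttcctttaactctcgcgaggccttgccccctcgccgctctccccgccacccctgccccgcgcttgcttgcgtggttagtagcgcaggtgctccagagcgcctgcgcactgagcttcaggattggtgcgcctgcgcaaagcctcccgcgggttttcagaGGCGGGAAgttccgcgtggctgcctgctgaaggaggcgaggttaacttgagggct
Rad51ap2: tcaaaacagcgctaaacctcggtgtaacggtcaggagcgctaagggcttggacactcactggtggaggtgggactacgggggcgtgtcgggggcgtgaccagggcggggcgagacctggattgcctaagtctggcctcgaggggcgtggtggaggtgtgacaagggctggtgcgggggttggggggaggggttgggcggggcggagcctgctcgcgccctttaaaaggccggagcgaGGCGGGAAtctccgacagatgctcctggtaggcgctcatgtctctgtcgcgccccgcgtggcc
Brca2: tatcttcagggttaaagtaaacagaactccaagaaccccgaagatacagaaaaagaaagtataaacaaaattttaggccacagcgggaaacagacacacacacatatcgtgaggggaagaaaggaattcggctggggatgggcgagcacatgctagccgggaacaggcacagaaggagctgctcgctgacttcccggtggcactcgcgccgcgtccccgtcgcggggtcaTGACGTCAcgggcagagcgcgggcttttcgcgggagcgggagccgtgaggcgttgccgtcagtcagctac
The windows of *Dmc1*, *Psmc3ip*, *Mnd1* and *Hsf2bp* held none of the 3 motifs, the STRA8-MEIOSIN letters were in none of the 7, and no window held more than 1 motif. Over all 32851 windows of this length, 2.19% held the E2F letters, 7.94% the STRA8-MEIOSIN letters and 1.79% the CRE letters. Among the 9076 protein-coding genes measured here that have a window, the shares were higher: 5.23%, 11.3% and 3.81%, counting a match in any window of a gene. A match describes letters only and is not evidence that a factor binds.

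In control, levels per length ran from *Dmc1*, at the 96.3rd percentile of all genes, down to *Mnd1*, at the 45.6th. Mean RPF abundance was 163 ± 22.4 FPKM for *Dmc1*, 78.2 ± 10.8 for *Psmc3ip*, 62.0 ± 13.9 for *Spata22*, 32.7 ± 3.65 for *Meiob*, 28.9 ± 5.48 for *Rad51ap2*, 24.5 ± 1.57 for *Brca2*, 19.8 ± 1.64 for *Hsf2bp* and 7.12 ± 7.46 for *Mnd1* (SD, n = 2 each). The library values of *Psmc3ip* and *Spata22* overlapped, as did those of *Meiob* with *Rad51ap2* and of *Rad51ap2* with *Brca2*, so the order of these neighbours is not settled.

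In *Eef1g*-cKO the order changed in the middle of the scale. *Dmc1* stayed first at 335 ± 1.20 FPKM, *Spata22* came second at 195 ± 12.8, and *Psmc3ip* (145 ± 9.15), *Meiob* (99.6 ± 18.7) and *Rad51ap2* (62.2 ± 10.3) followed, each with libraries apart from the next (SD, n = 2 each). *Hsf2bp* (28.2 ± 10.8) and *Brca2* (25.2 ± 1.66) overlapped, and *Mnd1* was again last at 10.97 ± 8.29 FPKM. *Brca2*, which had been close to *Meiob* and *Rad51ap2* in control, lay below both in *Eef1g*-cKO.

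**Figure D1:**
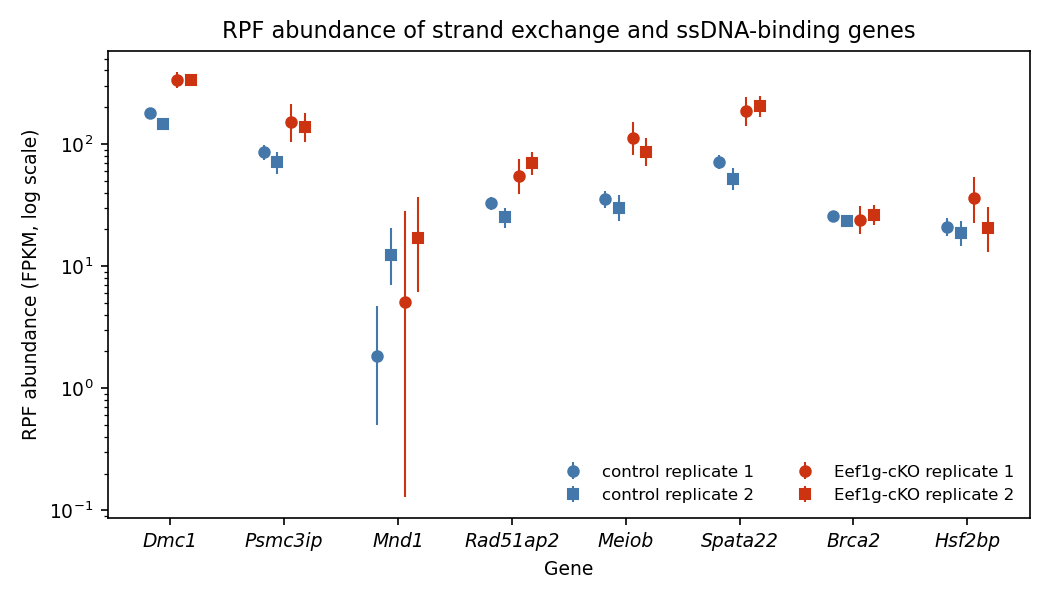
RPF abundance in FPKM (log axis) of the 8 genes in each of the 4 libraries, with control in blue and *Eef1g*-cKO in red; circles are replicate 1, squares replicate 2, and bars are exact 95% Poisson limits on the reads, which cover counting error only. Both *Eef1g*-cKO points lie above both control points for *Dmc1*, *Psmc3ip*, *Rad51ap2*, *Meiob* and *Spata22*, while *Brca2* stays between 23.4 and 26.4 FPKM in all 4 libraries and *Mnd1* rests on 1 to 15 reads.

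Across the set, 3 of 8 genes rose in *Eef1g*-cKO (*Dmc1*, *Meiob* and *Spata22*; limma on log2(FPKM + 1), threshold 0.05 on the Benjamini-Hochberg adjusted p and 1 on the log2 fold change), where 2.87% of all 10475 tested genes did so. By unadjusted p with the same fold, the 3 were joined by *Rad51ap2*, giving 4 of 8 against 7.32% of all genes. None of the 8 passed in the other direction, in which 4.97% of all genes passed by adjusted and 16.3% by unadjusted p. For 5 of the 8 genes both *Eef1g*-cKO libraries exceeded both control libraries, and for 0 they were both lower, against 24.6% and 37.7% of all tested genes. Fold changes in this comparison are on the log2(FPKM + 1) scale, which understates the change of low genes. *Dmc1*, *Meiob*, *Spata22* and *Rad51ap2* are among the recombination genes that the study picked out on these same libraries, so their count is not independent evidence of a direction.

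The median log2 fold change of the 8 genes was 0.96, against -0.23 over all tested genes. Centring each library on its median moved the median of all genes to -0.02 and that of the 8 genes to 1.18. With this centring 5 of the 8 genes rose, the added ones being *Psmc3ip* (log2 fold change 1.10, limma adjusted p = 0.0372) and *Rad51ap2* (1.30, limma adjusted p = 0.0420). The same centring turned the split of all genes called by adjusted p from 301 higher and 521 lower into 521 higher and 383 lower. With 2 libraries against 2, the smallest p that an exact two-sided permutation test can reach for a gene is 0.333, so each p here leans on the spread shared across genes. Leaving out control replicate 1 or control replicate 2 took the number of the 8 genes that rose from 3 to 0, and in neither case was any gene of the table called higher by adjusted p. Without *Eef1g*-cKO replicate 1 the 3 were *Meiob*, *Spata22* and *Rad51ap2*, and without *Eef1g*-cKO replicate 2 they were the 2 genes *Meiob* and *Spata22*.

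*Dmc1*, the meiotic recombinase, was the most abundant gene of the set. It had 984 and 452 reads in control against 166 and 304 in *Eef1g*-cKO, or 179 and 147 FPKM against 334 and 336 FPKM. The *Eef1g*-cKO libraries nearly coincided and both lay above the control pair. Exact Poisson limits on their reads ran from 285 to 389 and from 299 to 376 FPKM. The *Eef1g*-cKO SD of 1.20 FPKM thus does not cover counting error. The mean was 2.05-fold higher, a log2 fold change of 1.04 with a standard error of 0.20 (limma 95% interval 0.54 to 1.54, adjusted p = 0.0426). This call was lost when any 1 of the 4 libraries was left out (limma adjusted p from 0.0799 to 0.202). edgeR's quasi-likelihood test on the recovered reads gave 1.11 (adjusted p = 0.00114).

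*Psmc3ip*, the HOP2 subunit that helps DMC1 find and invade the homologue, had 207 and 95 reads in control against 33 and 55 in *Eef1g*-cKO. Its RPF abundance was 85.9 and 70.6 FPKM in control against 152 and 139 FPKM in *Eef1g*-cKO, with no overlap between groups. The change of 0.89 on the log2 scale (standard error 0.21, limma adjusted p = 0.0577) fell short of both thresholds. In edgeR's quasi-likelihood test the change of 0.95 passed the adjusted p (0.0169) but not the fold.

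*Mnd1*, which encodes the other subunit of that heterodimer, rested on few reads. It had 4 and 15 reads in control against 1 and 6 in *Eef1g*-cKO, or 1.85 and 12.4 FPKM against 5.11 and 16.8 FPKM, and the groups overlapped. Exact Poisson limits on these counts ran from 1.09 to 10.2 and from 8.40 to 24.7 reads in control and from 0.0253 to 5.57 and from 2.20 to 13.1 in *Eef1g*-cKO. The log2 fold change of 0.76 had a standard error of 0.88 and an interval from -1.41 to 2.92 (limma adjusted p = 0.588), so no change was detectable at this depth. The ratio of *Mnd1* to *Psmc3ip* within a library was 0.0215 and 0.176 in control against 0.0337 and 0.121 in *Eef1g*-cKO, which is far from equal RPF abundance per length in every library, with a difference between groups (0.06 on the log2 scale) well inside the spread between replicates (2.51).

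*Rad51ap2* had 258 and 110 reads in control against 39 and 90 in *Eef1g*-cKO. In FPKM it stood at 32.8 and 25.03 in control against 54.9 and 69.5 in *Eef1g*-cKO, again without overlap. Its log2 fold change of 1.08 (standard error 0.26) exceeded the fold threshold but missed the adjusted p in limma (0.0602), and it passed in edgeR's quasi-likelihood test (1.19, adjusted p = 0.00292). Its ratio to *Dmc1* was 0.183 and 0.170 in control against 0.164 and 0.207 in *Eef1g*-cKO, so that the difference of 0.06 on the log2 scale was smaller than the spread of 0.25.

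*Meiob* and *Spata22*, whose products bind single-stranded DNA as a complex, showed the largest changes of the 8 genes. *Meiob* had 149 and 71 reads in control against 43 and 60 in *Eef1g*-cKO, or 35.3 and 30.1 FPKM against 113 and 86.4 FPKM. *Spata22* had 227 and 92 reads in control against 53 and 106 in *Eef1g*-cKO, or 71.9 and 52.2 FPKM against 186 and 204 FPKM. In both genes every *Eef1g*-cKO library exceeded every control library. The mean of *Meiob* was 3.04-fold higher, or 1.57 on the log2 scale with a standard error of 0.24 (limma adjusted p = 0.0320). That of *Spata22* was 3.14-fold higher, a log2 fold change of 1.65 with a standard error of 0.24 (limma adjusted p = 0.0297). Among all tested genes these changes lay at the 96.9th and 97.4th percentiles.

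The balance between these partners did not move beyond replicate spread. *Meiob* stood at 0.491 and 0.577 of *Spata22* per length in control against 0.607 and 0.423 in *Eef1g*-cKO. The groups overlapped, and their difference of -0.07 on the log2 scale was below the spread of 0.40.

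*Brca2*, the recombinase loader, was the steadiest of the 8 genes. Its 706 and 360 reads in control against 60 and 120 reads in *Eef1g*-cKO came to 25.6 and 23.4 FPKM against 24.1 and 26.4 FPKM. The values of the groups overlapped. The log2 fold change was 0.04 with a limma 95% interval from -0.58 to 0.66 (adjusted p = 0.921), so a change of up to those limits in either direction cannot be told from none in these libraries.

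*Hsf2bp*, whose product recruits BRCA2 to meiotic breaks, had 149 and 74 reads in control against 23 and 24 in *Eef1g*-cKO. It lay at 20.96 and 18.6 FPKM in control against 35.8 and 20.5 FPKM in *Eef1g*-cKO, and the groups overlapped. Its change of 0.44 on the log2 scale (standard error 0.34, limma adjusted p = 0.418) rested on *Eef1g*-cKO replicate 1: it was 0.05 without that library and 0.83 without *Eef1g*-cKO replicate 2. *Hsf2bp* over *Brca2* was 0.820 and 0.798 in control against 1.49 and 0.777 in *Eef1g*-cKO.

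**Figure D2:**
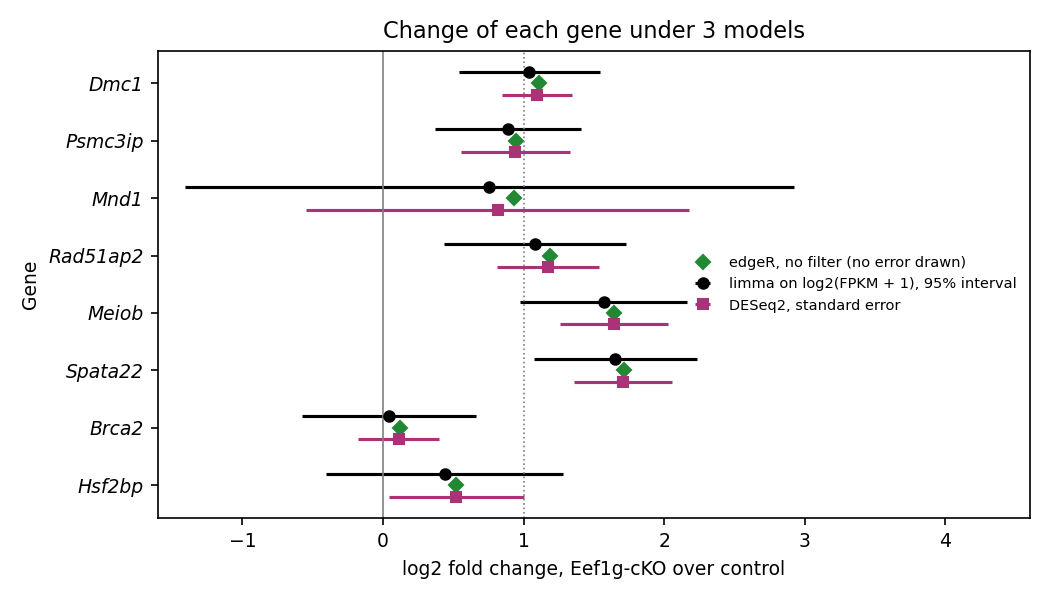
log2 fold change of *Eef1g*-cKO over control for the 8 genes from limma on log2(FPKM + 1) (black, bars are 95% intervals), edgeR without a filter on low counts (green, no error drawn) and DESeq2 (purple, bars are standard errors); the solid line marks 0 and the dotted line the fold threshold of 1. The 3 models lie close together for each gene, and the limma interval includes 0 for *Mnd1*, *Brca2* and *Hsf2bp* only.

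Counted together, the 8 genes took 1082 and 917 RPM (reads per 1000000 of a library) in control against 1867 and 1875 in *Eef1g*-cKO, a 1.87-fold higher mean (SD 117 and 5.83, n = 2 each). The *Eef1g*-cKO SD rests on 418 and 765 reads and does not cover counting error. The composition of this pool shifted. *Dmc1* made up 36.7% and 35.6% of it in control against 39.7% and 39.7% in *Eef1g*-cKO. *Brca2* made up 26.3% and 28.4% in control against 14.4% and 15.7% in *Eef1g*-cKO. *Spata22* went from 8.46% and 7.25% to 12.7% and 13.9%, and *Meiob* from 5.55% and 5.59% to 10.3% and 7.84%. These shares are of reads, so long mRNAs such as *Brca2* weigh more than in FPKM.

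Ratios within a library do not depend on how libraries are scaled. *Spata22* stood at 2.81 and 2.23 times *Brca2* in control against 7.72 and 7.72 times in *Eef1g*-cKO, a difference of 1.62 on the log2 scale against a spread of 0.23. *Dmc1* stood at 6.99 and 6.30 times *Brca2* in control against 13.9 and 12.7 times in *Eef1g*-cKO, a difference of 1.00 against a spread of 0.14. In both pairs the groups did not overlap, so *Spata22* and *Dmc1* rose relative to *Brca2* in these libraries, whatever the scale. These pairs were not planned, and they set genes that rose beside the steadiest of the 8. The *Eef1g*-cKO ratios of *Spata22* to *Brca2* were equal on 53 and 106 *Spata22* reads. The spread of 0.23 thus rests on the control pair and does not cover counting error. The spread of 0.14 for *Dmc1* to *Brca2* need not cover it either. In *Eef1g*-cKO that pair rests on 166 and 304 *Dmc1* reads and on 60 and 120 *Brca2* reads.

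In count models on the recovered reads, 7 of the 8 genes passed edgeR's filter, *Mnd1* being left out. Of these, 4 rose by adjusted p and fold (*Dmc1*, *Meiob*, *Spata22* and *Rad51ap2*), against 8.75% of the 8056 genes tested, and 5 were higher by adjusted p alone when *Psmc3ip* was added, against 11.9%. DESeq2 gave log2 fold changes of 1.10 for *Dmc1* (adjusted p = 4.03e-04), 1.64 for *Meiob* (adjusted p = 6.60e-04), 1.71 for *Spata22* (adjusted p = 4.89e-05) and 1.17 for *Rad51ap2* (adjusted p = 0.0158). For *Psmc3ip* it gave 0.94 (adjusted p = 0.0931).

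**Figure D3:**
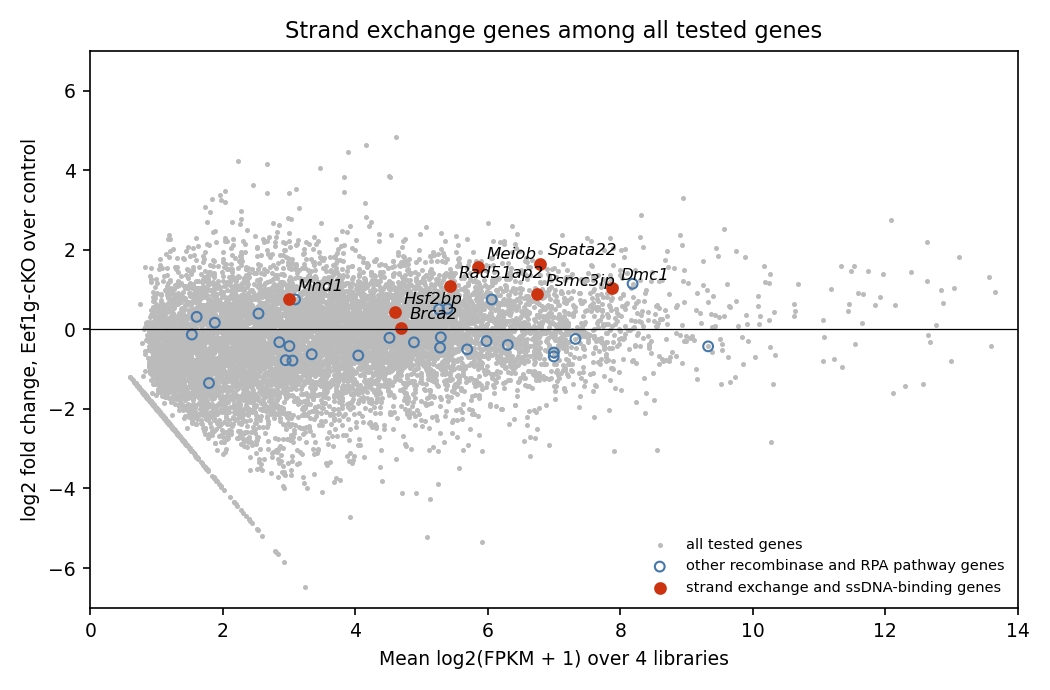
log2 fold change of *Eef1g*-cKO over control against mean log2(FPKM + 1) over the 4 libraries for the 10475 tested genes (grey), with the 8 strand exchange and single-stranded DNA-binding genes (red, named) and the 27 other pathway genes (blue rings); 4 genes lie outside the axes. The named genes all lie at or above the zero line, while 19 of the 27 blue rings lie below it.

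The other genes of the pathway mostly had lower RPF abundance in *Eef1g*-cKO, to about the same extent as genes at large. A list of 28 was drawn up from general knowledge, with recombinase paralogs, RAD54 proteins, the RPA subunits, BRCA1-PALB2 and BRME1, the SWI5-SFR1 and Shu complexes, FIGNL1 and its partner, and the MCM8-9 and HELQ helicases with MCMDC2. Of these, 27 were measured and tested, with a median log2 fold change of -0.32, beside -0.23 over all tested genes, and a range from -1.35 to 1.14. Only *Swi5* rose by adjusted p and fold, a share of the list near the 2.87% of all genes, none fell by either p with the fold, and 8 had a positive and 19 a negative fold change. For 5 both *Eef1g*-cKO libraries exceeded control, and for 13 both were below it, where 24.6% and 37.7% of all genes did so. Summed, the 27 took 2892 and 3526 RPM in control against 2818 and 2900 in *Eef1g*-cKO, 0.891 times the control mean.

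The RPA subunits, which coat single-stranded DNA in all cells, can be set beside *Meiob* and *Spata22*. *Rpa1* was at 51.9 and 70.2 FPKM in control against 35.9 and 49.7 FPKM in *Eef1g*-cKO, a log2 fold change of -0.50 (limma adjusted p = 0.269). *Rpa2* was at 141 and 183 FPKM in control against 108 and 92.2 FPKM in *Eef1g*-cKO, a log2 fold change of -0.68 (limma unadjusted p = 0.0247, adjusted p = 0.111). *Rpa3*, on 60 and 27 reads in control against 9 and 10 in *Eef1g*-cKO, was at 37.9 and 30.6 FPKM and then 63.0 and 38.4 FPKM, a log2 fold change of 0.52 (limma adjusted p = 0.305). None of the 3 passed the test, and the libraries of *Rpa1* and *Rpa2* lay below control where those of *Meiob* and *Spata22* lay above. Those of *Rpa3* also lay above control, by little in *Eef1g*-cKO replicate 2 (38.4 against 37.9 FPKM in control replicate 1).

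*Rad54l*, a motor protein that acts in strand exchange, was at 9.05 and 14.8 FPKM in control against 5.81 and 8.77 FPKM in *Eef1g*-cKO (log2 fold change -0.63, limma adjusted p = 0.352). *Brme1* (listed as *4930432K21Rik*), the partner of HSF2BP, was at 25.6 and 38.2 FPKM in control against 48.4 and 41.3 FPKM in *Eef1g*-cKO (log2 fold change 0.50, limma adjusted p = 0.280). Its ratio to *Hsf2bp* was 1.22 and 2.05 in control against 1.35 and 2.01 in *Eef1g*-cKO, with the groups overlapping.

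*Swi5*, which encodes a subunit of the SWI5-SFR1 recombinase cofactor, had 392 and 202 reads in control against 70 and 148 in *Eef1g*-cKO. Its RPF abundance was 203 and 187 FPKM in control against 401 and 465 FPKM in *Eef1g*-cKO, a log2 fold change of 1.14 (limma adjusted p = 0.0374), a call lost when any 1 of the 4 libraries was left out. *Swi5* overlaps *Golga2* on the opposite strand, and whether the counting used strand is not given in the sources used here. Its partner *Sfr1*, named after its values were seen, went from 148 and 163 FPKM to 93.1 and 115 FPKM, a log2 fold change of -0.58 (limma adjusted p = 0.131). In edgeR's quasi-likelihood test, 24 of the list were tested, *Swi5* rose by adjusted p and fold, and *Mcm8* was higher by adjusted p alone. *Mcm8*, a helicase subunit of recombination, was at 39.8 and 63.7 FPKM in control against 93.9 and 77.7 FPKM in *Eef1g*-cKO (edgeR log2 fold change 0.81, adjusted p = 0.0221).

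**Figure D4:**
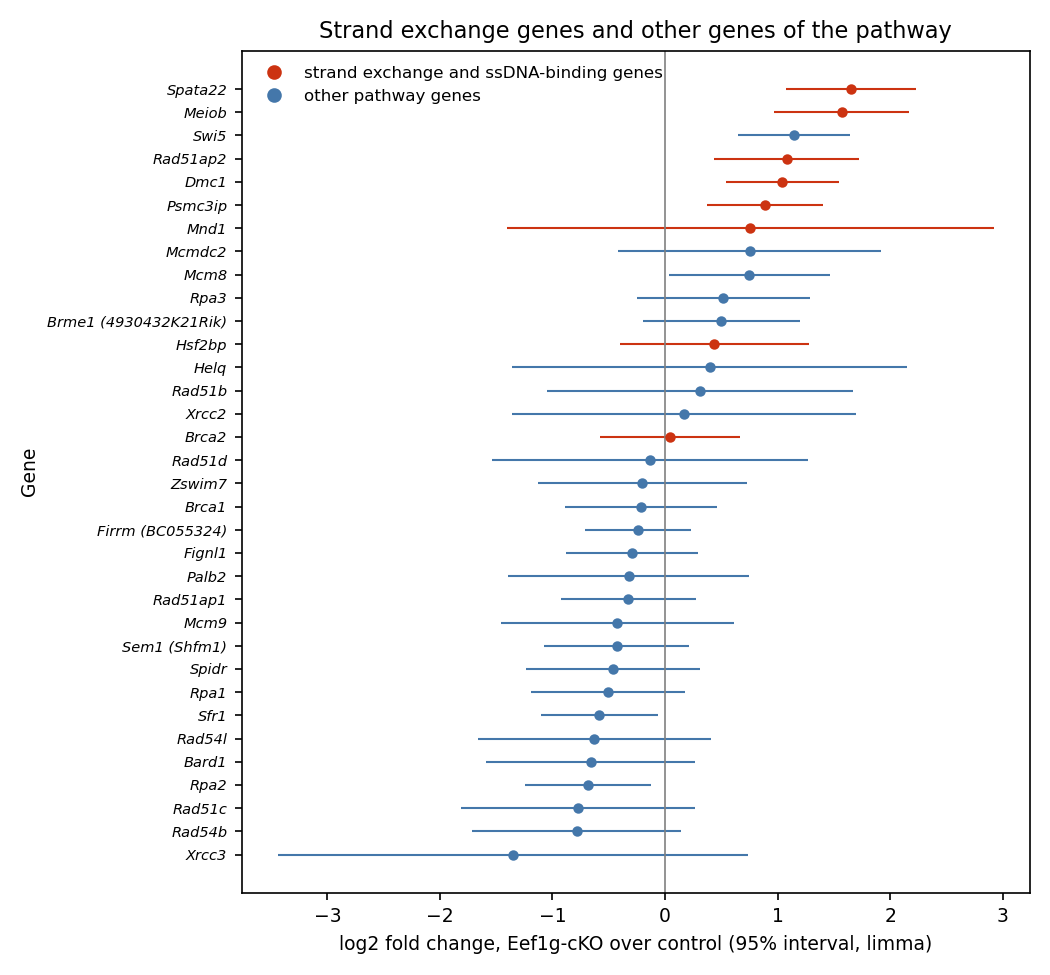
log2 fold change of *Eef1g*-cKO over control with limma 95% intervals for the 8 strand exchange and single-stranded DNA-binding genes (red) and 26 other pathway genes (blue), ordered by fold change. 5 of the 6 highest rows are red, *Swi5* is the blue one among them at 1.14, *Rpa1* and *Rpa2* lie left of 0, and *Rpa3* lies right of 0.

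Other steps of recombination were described by lists written from general knowledge. Their counts stand beside shares of all tested genes of 2.87% rising by adjusted p, 7.32% higher and 16.3% lower by unadjusted p with the fold, and 24.6% with both *Eef1g*-cKO libraries above and 37.7% with both below control. All 10 synaptonemal complex and axis genes had both *Eef1g*-cKO libraries above control, with a median log2 fold change of 1.13, and 5 of them rose by adjusted p and fold. Of 10 measured genes on the crossover list, 2 rose (*Hfm1* and *Msh4*, a helicase and a MutS protein of crossover formation). On that list 7 lay above control and 1 below, with a median of 0.61. The 10 include *1700102P08Rik*, taken as *Spo16* from general knowledge, a link that the RefSeq names did not hold. These counts and this median may therefore include a gene outside crossover formation. Of 8 measured genes of break formation, 0 rose or fell by adjusted p, 1 passed by unadjusted p in each direction (*Top6bl*, listed as *Gm960*, higher and *Rec114* lower), which is near those shares, and the median was 0.06. Several genes of these lists, *Hfm1*, *Msh4* and *Top6bl* included, were also picked out by the study on these libraries, so their counts are not independent evidence either.

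Cell type markers moved with genotype, and their values stand here beside the results above. The 9 leptotene/zygotene markers together took 4614 and 3611 RPM in control against 9209 and 9072 in *Eef1g*-cKO (2.22-fold), so reads of these markers were present in both groups. By adjusted p and fold 4 rose, against 2.87% of all genes. Both *Eef1g*-cKO libraries lay above control for 8, against 24.6%, and 1 had a negative fold change. The 10 spermatogonial markers took 1414 and 1792 RPM in control against 277 and 314 in *Eef1g*-cKO (0.184-fold). With the fold, 7 fell by unadjusted p and 4 by adjusted p, where 16.3% and 4.97% of all genes did so. Of the 10, 5 and 1 had no read in *Eef1g*-cKO replicates 1 and 2. The 4 measured of 5 preleptotene markers took 1360 and 1933 in control against 1371 and 1194 in *Eef1g*-cKO, and 1 of them fell by adjusted p and fold. The 5 measured of 8 pachytene markers took 830 and 616 in control against 1773 and 1831 in *Eef1g*-cKO (2.49-fold). They did not move as 1: log2 fold changes ran from -1.46 to 2.04, with 4 above and 1 below control in both *Eef1g*-cKO libraries. By adjusted p and fold 1 rose, and by unadjusted p and fold 1 fell, where 2.87% and 16.3% of all genes did so. The higher reads of the strand exchange genes (1.87-fold) thus came with higher summed leptotene/zygotene and pachytene marker reads and lower summed spermatogonial marker reads. The part of cell composition in these higher reads was not tested. In bulk libraries, fewer cells of a type and less RNA per cell cannot be told apart.

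Of the somatic markers, those of Sertoli cells were highest in control replicate 1, those of Leydig cells overlapped between the groups, and none passed by limma adjusted p and fold. The 8 measured of 10 Sertoli markers took 1094 and 282 RPM in control against 272 and 176 in *Eef1g*-cKO, where 2 and 1 of them had no read. All 8 had a negative fold change, 5 with both *Eef1g*-cKO libraries below control, against 37.7% of all genes. By limma unadjusted p and fold 2 fell, against 16.3%. In edgeR 2 of 6 tested fell by adjusted p and fold, where 904 of 8056 genes did. The 3 measured of 5 peritubular markers took 125 and 91.7 in control against 49.1 and 56.4 in *Eef1g*-cKO. The 3 measured of 7 Leydig markers took 7.26 and 11.6 in control against 8.93 and 4.90 in *Eef1g*-cKO, the 2 measured of 5 spermatid markers 1.61 and 25.3 in control against 0 and 4.90 in *Eef1g*-cKO, and none of the 5 macrophage markers was measured. Control replicate 1, the library with most Sertoli reads, also had the lowest share of reads on protein-coding genes, 78.2% against 84.4% to 86.2% in the other libraries.

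Base composition also moved with the result. The coding sequences of the 8 genes held from 38.0% (*Rad51ap2*) to 52.4% (*Psmc3ip*) G and C, where the median over all coding sequences was 53.0%. *Meiob* (38.7%) and *Spata22* (40.3%) lay at the 0.706th and 1.59th percentiles. Over all tested genes, the median log2 fold change fell from 0.25 in the tenth of genes with least GC to -0.70 in the tenth with most. With this trend removed, the log2 fold change was 1.03 for *Spata22* (limma adjusted p = 0.0407), 0.87 for *Meiob* (adjusted p = 0.0703), 0.64 for *Dmc1* (adjusted p = 0.0836) and 0.35 for *Rad51ap2* (adjusted p = 0.391). *Psmc3ip*, with a GC content near the median, was at 0.93 (limma adjusted p = 0.0498), and *Brca2*, at 41.5% GC, turned to -0.52 (limma adjusted p = 0.252). So *Spata22* alone of the 8 still passed adjusted p and fold, and the median of the 8 genes fell to 0.50. The part of base composition in the changes was not tested further.

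**Figure D5:**
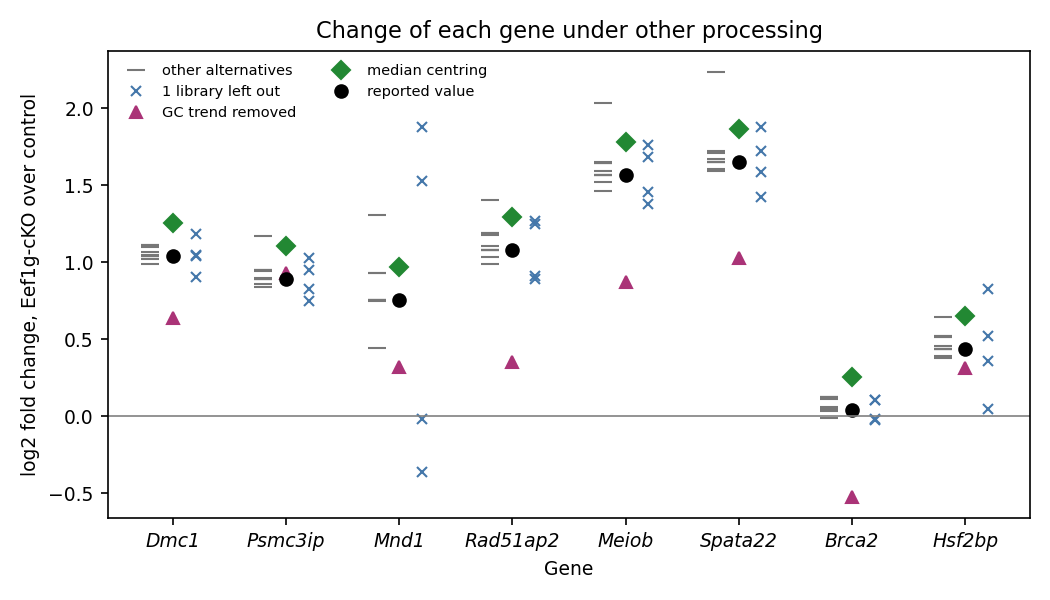
log2 fold change of each of the 8 genes as reported (black circle) and under other processing: median centring (green diamond), GC trend removed (purple triangle), each library left out in turn (blue crosses) and the remaining alternatives (grey dashes). *Spata22* goes no lower than 1.03 and *Meiob* than 0.87, *Mnd1* runs from -0.36 to 1.87, and the GC trend lowers *Rad51ap2* to 0.35 and *Brca2* to -0.52.

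The genes whose profile over the 4 libraries came nearest to the mean profile of the 8 (Euclidean distance of centred log2(FPKM + 1), among the 7072 genes that averaged 5 FPKM or more) were *Tmem106c*, *Dld*, *Canx*, *Fbxo3* and *Rab8b*, at distances from 0.0160 to 0.0732. *Dld*, a mitochondrial dehydrogenase subunit, was at 82.7 and 86.6 FPKM in control against 159 and 174 FPKM in *Eef1g*-cKO. *Canx*, the chaperone calnexin of the endoplasmic reticulum, was at 191 and 196 FPKM in control against 341 and 371 FPKM in *Eef1g*-cKO. In *Eef1g*-cKO, *Tmem106c* rested on 5 and 10 reads and *Rab8b* on 12 and 22. With 4 libraries in 2 groups, a near profile mostly means a like difference between the groups.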

How the data were processed

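RPF libraries of FACS-sorted leptotene/zygotene spermatocytes from 12 dpp testes (2 control, 2 *Eef1g*-cKO) were analysed from a single table of 11598 genes. According to the study's methods, adapters were trimmed, reads were filtered for quality and aligned to the genome; the submitters' processing notes name cutadapt, Bowtie and STAR and the builds mm10 and hg38 with no role. The read counter, annotation, strand setting and treatment of reads with several matches are not given in the sources used here. The FPKM values were computed by the authors per kilobase of gene length and scaled to 1000000 reads on genes. The deposited normalized counts are a signal, each gene's read count divided by a size factor per library, by the authors; 100% of values were whole multiples of the library's step (tolerance 0.001), which gave back the reads. The table also holds the log2 fold changes, test score, p-values and adjusted p-values of the authors' own comparison, which were not used.

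Values were compared as log2(FPKM + 1) with limma 3.58.1 in R 4.3.3 (trended prior variance, Benjamini-Hochberg over the 10475 genes averaging 1 FPKM or more), with thresholds of 0.05 on p and 1 on the size of the log2 fold change. edgeR 4.0.16 (TMM, filterByExpr, quasi-likelihood) and DESeq2 1.42.0 on the recovered reads were alternatives, beside other pseudocounts, filters and scalings, reads thinned to the lowest total, removal of the GC trend, a replicate block and leaving out each library. The limma, edgeR and DESeq2 fits at the settings named were run on simulated data, and the other alternatives were not. Poisson limits on reads cover counting error only. Coding sequences came from GENCODE release M21, coordinates and promoters from RefSeq (GRCm38.p6; 11565 symbols matched, 33 not). The libraries are labelled by group and replicate number only. Whether libraries of equal number shared a litter or batch is not given in the sources used here. The 8 genes, the lists and the markers were chosen with earlier results of these data known. Genes named outside the 8 are *Eef1g*, the pathway genes passing unadjusted p and fold, *Rpa1*, *Rpa2*, *Rpa3*, *Rad54l* and *Brme1*, and the 5 nearest profiles; *Sfr1*, *Mcm8*, *Hfm1*, *Msh4*, *Top6bl* and *Rec114* were named after their values were seen. 1 gene of the pathway list enters its counts but is not reported here.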

Additional observations from a re-analysis of the deposited data

How the results depend on the processing

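The log2 fold changes of *Dmc1*, *Psmc3ip*, *Meiob*, *Spata22*, *Hsf2bp* and *Rad51ap2* kept their direction under every alternative run, and *Dmc1*, *Psmc3ip*, *Meiob* and *Spata22* kept an unadjusted p under 0.05 in all 18. The adjusted calls did not hold as well. The number of the 8 genes that rose by adjusted p and fold was 3 as reported, 5 with median centring, 1 with the GC trend removed, and 0 with a pseudocount of 0.1 FPKM, with an untrended prior variance and with reads thinned to the lowest total. Over all genes these last 3 settings left 29, 0 and 0 genes higher by adjusted p, against 748, 793 and 685 by unadjusted p, so few or no genes of any kind passed the adjustment there. By unadjusted p the number was 4, and 1 with the GC trend removed. The median of the 8 genes was 0.96 as reported, 1.18 with centring, 1.24 with thinning and 0.50 with the GC trend removed. *Swi5*, the single pathway gene that rose, gave 1 as reported and 0 with the pseudocount of 0.1 FPKM, the untrended prior and thinning. *Brca2* turned to -0.0077 with protein-coding reads only and to -0.52 with the GC trend removed. The cause of these shifts was not tested.

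Leaving out 1 library at a time gave 0 to 3 of the 8 genes by adjusted p and 2 to 5 by unadjusted p. It was 0 by adjusted p without control replicate 1 and without control replicate 2, where no gene at all was called higher and 585 and 501 were by unadjusted p, and the count of 2 came without control replicate 2. The median of the 8 genes ran from 0.90 to 1.15, the fold of their summed reads from 1.73 to 2.04, the pathway genes that rose from 0 to 0 and those that fell from 0 to 1 (1 without *Eef1g*-cKO replicate 1). *Mnd1* turned to -0.36 without control replicate 1 and to -0.02 without *Eef1g*-cKO replicate 2, with a range up to 1.87. *Brca2* ran from -0.021 (without *Eef1g*-cKO replicate 2) to 0.11 and was at -0.020 without control replicate 2. *Mnd1* over *Psmc3ip* ran from -1.46 to 1.57 (-0.87 without *Eef1g*-cKO replicate 2) and *Meiob* over *Spata22* from -0.33 to 0.19 (0.05 without control replicate 2).

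Deviations from the group means of equal replicate numbers correlated at -0.008 across 10475 genes, which are not independent replicates. A single such comparison cannot show whether libraries of equal number shared a litter or batch. With a replicate block, 3 of the 8 genes rose by adjusted p and 4 by unadjusted p, as without it, while genes called higher over the whole table went from 301 to 424 and lower from 521 to 822. Across the other methods, edgeR called 705 higher and 904 lower and DESeq2 502 and 451 by adjusted p. Depth in *Eef1g*-cKO limits named genes such as *Mnd1*, *Hsf2bp*, *Rpa3*, *Rad54l*, *Eef1g*, *Tmem106c* and *Rab8b*, each with under 25 reads there in every library.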
